A study of Mus musculus with 8 samples.

Results

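T cell costimulatory and checkpoint molecules are the surface proteins that, beside the antigen receptor, decide whether a T cell is activated or held back. The genes followed here in the RNA-seq of whole mouse aortas are 10 of this system, out of the 48607 assembled loci in the deposited table. They were taken by gene symbol, with the locus of the largest summed count where a symbol had more than one. Antigen-presenting cells carry the ligands Cd80 and Cd86, which bind the activating receptor Cd28 and the inhibitory receptor Ctla4 on T cells, and Icosl, which binds the activating receptor Icos. Cd274 and Pdcd1lg2 encode PD-L1 and PD-L2, the ligands of the inhibitory receptor PD-1, which Pdcd1 encodes. Cd40 is the receptor through which an antigen-presenting cell is licensed by the CD40 ligand of a helper T cell, and one result of that signal is more CD80 and CD86 on its surface. In the atherosclerotic artery wall, T cells, macrophages and dendritic cells meet within the plaque and the adventitia, and mice without CD40 ligand or PD-1 signals have been widely used to study plaque growth.

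The libraries came from entire aortas of ApoE-/- mice, which lack apolipoprotein E and develop atherosclerosis, and of littermates that in addition lack natriuretic peptide receptor C, titled NPRC-/-ApoE-/- and written ApoE-/-NPRC-/- here. Both groups were fed a Western diet, for 12 weeks according to the methods, so that all 8 libraries share the ApoE deletion and the diet. The Npr3 gene was disrupted in every cell of the body by a CRISPR frameshift in its first exon, on a C57BL/6 background, and for the sequenced mice the sources used here give neither age nor sex, although ApoE-/- mice were bought as males aged 8 weeks. The titles name 5 ApoE-/- and 3 ApoE-/-NPRC-/- libraries, whereas the methods speak of 5 mice in each group.

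The labels conflict for 4 of the 8 libraries. The libraries titled ApoE-/- 4 and 5 carry ApoE-/-NPRC-/- as their genotype entry, and those titled ApoE-/-NPRC-/- 1 and 2 carry ApoE-/-. Only ApoE-/- 1, 2 and 3 and ApoE-/-NPRC-/- 3 have labels that concur. The 10 genes are therefore compared by title and again by genotype entry, and library names are the titles. The level of Npr3, in FPKM (fragments scaled by the length of the transcript and the size of the library), was 1.69, 0.93, 0.62, 1.01 and 1.67 in ApoE-/- 1 to 5 and 1.18, 1.39 and 1.13 in ApoE-/-NPRC-/- 1 to 3. A frameshift need not lower the RNA, so these levels settle neither labelling. Total counts ran from 62969165 to 86693276 per library. Smooth muscle Myh11 (108.8 to 324 FPKM) and endothelial Pecam1 (18.5 to 24.7 FPKM), markers of aorta, were present in every library, as was Ucp1 of brown fat (71.8 to 343 FPKM). The mice behind the libraries are not identified in the labels, and p-values here measure the spread between these libraries.

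The 10 genes lie on 5 chromosomes (coordinates in GRCm38, as in the table). Cd28 (chr1:60716800-60773359), Ctla4 (chr1:60887000-60915832) and Icos (chr1:60977927-61000320) follow one another on the plus strand, with gaps of 114 kb and 62.1 kb. Pdcd1 (chr1:94038305-94052553, minus strand) is on the same chromosome. The PD-1 ligand genes Cd274 (chr19:29367455-29388095) and Pdcd1lg2 (chr19:29410919-29471161) are 22.8 kb apart on the plus strand. Cd86 (chr16:36603869-36666077, minus strand) and Cd80 (chr16:38455561-38496335, plus strand) share chromosome 16, Cd40 is at chr2:165055627-165072948 and Icosl at chr10:78069302-78083913, both on the plus strand. For 9 of the 10 the locus had the bounds of the GENCODE M21 gene. Antisense genes overlap Cd274 (AC119228.1) and Pdcd1lg2 (A930007I19Rik), and the use of strand in counting is not given in the sources used here, so reads of these 2 genes and of their antisense partners may not have been separated. Ctla4 (Rpl18-ps1) and Icos (Gm37039) overlap annotated genes on their own strand, which strand could not separate. All 10 carry the annotation term for the external side of the plasma membrane in the table, which 448 loci carry, and 6 of them carry T cell costimulation, which 25 loci carry.

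Promoter windows (250 bases before to 50 after the transcription start, RefSeq, GRCm38.p6) were given for 6 of the 10 genes. The neighbouring PD-1 ligand genes are shown because they share a receptor and differ most in level among the ligands, and Cd80 because its window and that of Pdcd1lg2 held the matches found. Capitals mark a match to the AP-1 site TGANTCA in Cd80 and to the NF-kappa-B consensus in Pdcd1lg2.
Cd274, chr19:29367188-29367487, plus strand: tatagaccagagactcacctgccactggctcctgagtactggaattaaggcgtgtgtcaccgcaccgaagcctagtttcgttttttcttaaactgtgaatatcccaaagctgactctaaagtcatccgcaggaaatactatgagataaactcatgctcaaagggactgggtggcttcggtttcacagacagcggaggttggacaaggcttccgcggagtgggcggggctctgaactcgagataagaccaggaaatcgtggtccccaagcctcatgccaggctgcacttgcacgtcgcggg
Pdcd1lg2, chr19:29410669-29410968, plus strand: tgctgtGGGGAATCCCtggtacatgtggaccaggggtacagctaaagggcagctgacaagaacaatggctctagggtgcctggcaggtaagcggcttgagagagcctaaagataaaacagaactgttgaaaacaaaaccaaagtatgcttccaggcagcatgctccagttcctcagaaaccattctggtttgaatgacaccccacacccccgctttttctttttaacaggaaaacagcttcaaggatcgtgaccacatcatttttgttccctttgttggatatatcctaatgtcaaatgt
Cd80, chr16:38458683-38458982, plus strand: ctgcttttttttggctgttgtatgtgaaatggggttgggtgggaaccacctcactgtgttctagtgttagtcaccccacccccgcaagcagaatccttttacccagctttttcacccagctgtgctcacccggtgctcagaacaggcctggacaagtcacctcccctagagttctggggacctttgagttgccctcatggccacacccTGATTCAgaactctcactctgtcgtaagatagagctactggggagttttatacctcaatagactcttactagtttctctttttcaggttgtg
Counted in bases from the start, the match in Cd80 lies at -42 to -36 and that in Pdcd1lg2 at -244 to -235. Both read as a match on either strand, because these motifs are palindromic, and neither overlaps another motif searched. Among all 32851 promoter windows, 7.81% held TGANTCA and 4.51% the NF-kappa-B consensus. The gamma-activated site TTCNNNGAA, held by 8.3% of windows, had no match on either strand in the 6 windows. The GC content was 52.7% for Cd274, 46% for Pdcd1lg2 and 49.7% for Cd80.

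The ligand genes Cd274, Icosl, Cd80 and Cd86 were the most abundant of the system in the aorta, while the ligand gene Pdcd1lg2 lay among the receptors of T cells. By median FPKM over the 8 libraries the order was Cd274 (4.36), Icosl (3.02), Cd80 (1.68), Cd86 (1.14), Cd28 (0.72), Cd40 and Pdcd1 (0.395 each), Pdcd1lg2 (0.28), Ctla4 (0.225) and Icos (0.15). Cd274 stood above Icosl in 7 of 8 libraries, and Icosl above Cd80 and Cd80 above Cd86 in all 8. Further down, Cd40 was above Pdcd1 in only 3 of 8 libraries, Pdcd1lg2 above Ctla4 in 3 and Ctla4 above Icos in 5, so the order of these neighbours was not fixed. The counts behind the scarce receptors were small, from 3 to 157 for Ctla4, 33 to 239 for Icos and 30 to 294 for Pdcd1.

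**Figure D1:**
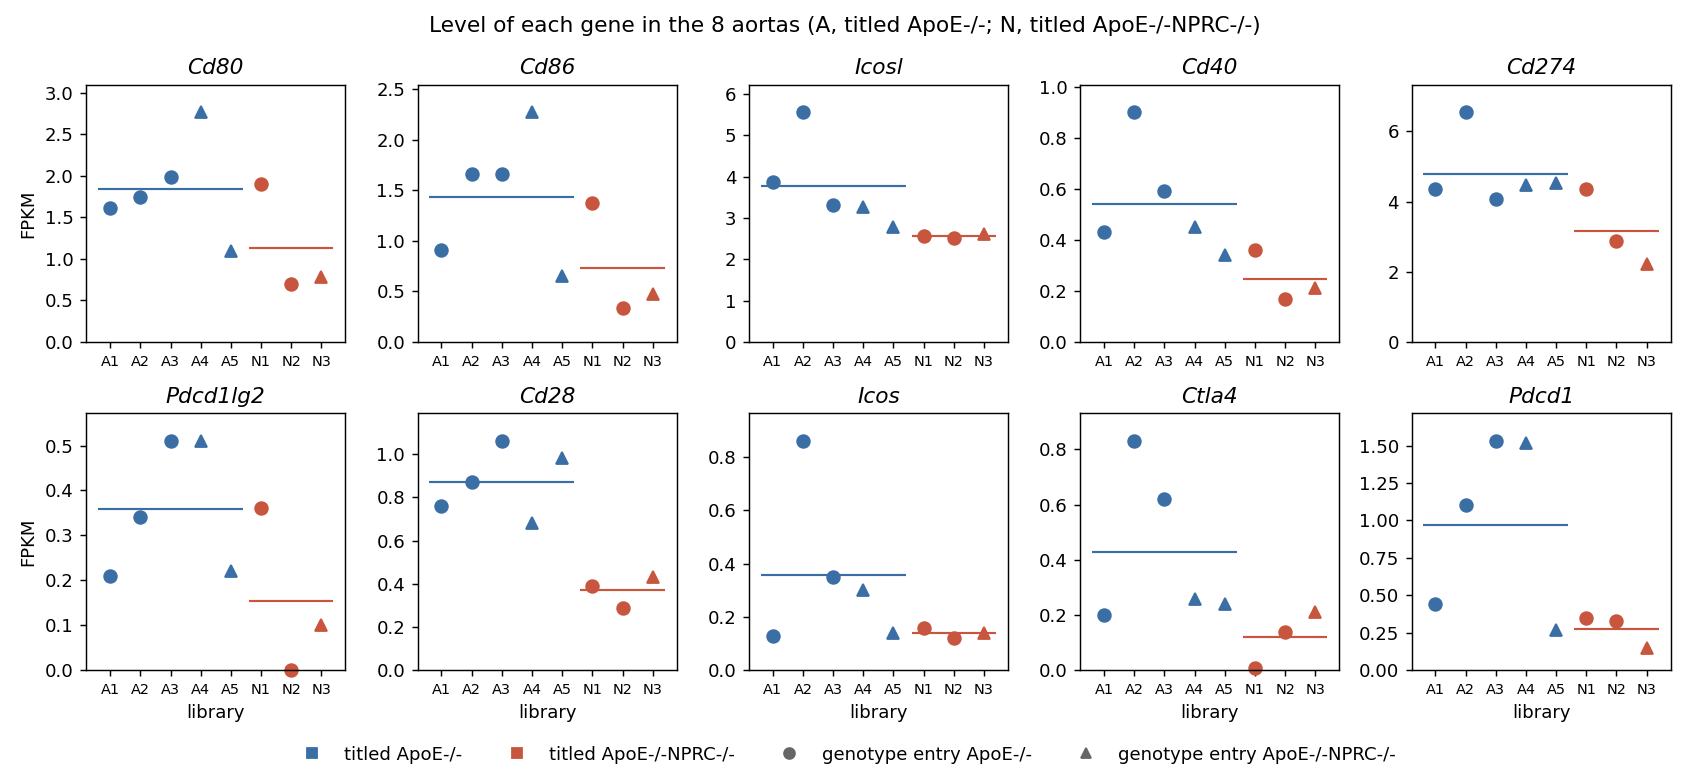
Level in FPKM of each of the 10 genes in every library, 1 point per library. Colour gives the title, shape the genotype entry, and lines the mean of the titled groups. For Cd28 and Icosl every library titled ApoE-/-NPRC-/- (at most 0.43 and 2.6 FPKM) lies below every library titled ApoE-/- (at least 0.68 and 2.78 FPKM), while the shapes are mixed in all panels. On the TMM-normalized log2 CPM scale the titled groups overlap for Icosl but not for Cd28. On that scale 4.1% of all loci are lower in ApoE-/-NPRC-/- without overlap.

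Of the CD28 ligands, Cd80 was at 1.61, 1.74, 1.98, 2.76 and 1.09 FPKM in ApoE-/- 1 to 5 and at 1.9, 0.7 and 0.78 FPKM in ApoE-/-NPRC-/- 1 to 3. Cd86 followed the same libraries, with 0.91, 1.66, 1.66, 2.27 and 0.65 FPKM against 1.37, 0.34 and 0.47 FPKM. Both were highest in ApoE-/- 4 and lowest in ApoE-/-NPRC-/- 2, and the titled groups overlapped because ApoE-/-NPRC-/- 1 lay among the ApoE-/- libraries. The log2 fold change of ApoE-/-NPRC-/- over ApoE-/- by title was -0.71 (SE 0.41) for Cd80 and -0.99 (SE 0.55) for Cd86, with adjusted p of 0.506 and 0.491 (edgeR quasi-likelihood test, Benjamini-Hochberg over 32823 loci). Without ApoE-/-NPRC-/- 1 the values were -1.29 and -1.79 and both met the criterion of the study (a fold change above 2 or under 0.5 with an unadjusted p under 0.05), and without ApoE-/-NPRC-/- 2 they were -0.43 and -0.63. Over all loci, 3136 met the criterion without ApoE-/-NPRC-/- 1 and 1058 without ApoE-/-NPRC-/- 2, against 1742 with all libraries. By genotype entry the log2 fold change was 0.01 (SE 0.47) for Cd80 and -0.02 (SE 0.63) for Cd86. Within a library the log2 CPM (the library-scaled count, not corrected for length) of Cd80 minus that of Cd86 lay between -0.43 and 0.5, so their balance varied less than either level.

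Icosl, the ligand of ICOS, was at 3.88, 5.55, 3.32, 3.27 and 2.78 FPKM in ApoE-/- 1 to 5 and at 2.55, 2.52 and 2.6 FPKM in ApoE-/-NPRC-/- 1 to 3. The titled groups did not overlap in FPKM but did on the TMM-normalized log2 CPM scale, where ApoE-/- 5 (3.85) lay below ApoE-/-NPRC-/- 3 (3.94). By title the log2 fold change was -0.53 (SE 0.22), with an unadjusted p of 0.0402 and an adjusted p of 0.369 in the edgeR test, and by genotype entry it was -0.26 (SE 0.27).

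Cd40, the receptor on antigen-presenting cells, was at 0.43, 0.9, 0.59, 0.45 and 0.34 FPKM in ApoE-/- 1 to 5 and at 0.36, 0.17 and 0.21 FPKM in ApoE-/-NPRC-/- 1 to 3. Only ApoE-/- 5 lay within the range of the libraries titled ApoE-/-NPRC-/-. The log2 fold change by title was -1.11 (SE 0.39), with an unadjusted p of 0.0184 and an adjusted p of 0.323 in the edgeR test, and by genotype entry -0.51 (SE 0.50). The gene of its ligand, Cd40lg, was listed at 0 in 6 of 8 libraries and at 0.42 and 0.11 FPKM in ApoE-/- 2 and 3. ApoE-/- 2, the library with the highest Cd40, also had the most RNA of B cells, which carry CD40, with 24.5 FPKM summed over 8 B cell markers against 0.76 to 4.1 FPKM elsewhere. The part of B cells in the Cd40 values was not tested. Without ApoE-/- 2 the log2 fold change of Cd40 by title was -0.88 (unadjusted p 0.0379, edgeR), less than 2-fold.

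The PD-1 ligand Cd274 was at 4.35, 6.54, 4.07, 4.46 and 4.54 FPKM in ApoE-/- 1 to 5 and at 4.37, 2.88 and 2.23 FPKM in ApoE-/-NPRC-/- 1 to 3. ApoE-/-NPRC-/- 1 lay among the ApoE-/- libraries, and the other two lay below all of them. By title the log2 fold change of Cd274 was -0.58 (SE 0.23), with an unadjusted p of 0.0328 and an adjusted p of 0.355 in the edgeR test, and by genotype entry it was -0.22 (SE 0.29). Pdcd1lg2 was far scarcer, at 0.21, 0.34, 0.51, 0.51 and 0.22 FPKM against 0.36, 0 and 0.1 FPKM. The 0 in ApoE-/-NPRC-/- 2 is a count of 0, an upper limit of 0.0476 CPM (3 counts of the library total, counting error only). Counts elsewhere were 20 to 100. With that library Pdcd1lg2 had a log2 fold change of -1.22 by title (SE 0.95, adjusted p 0.62, edgeR), and without it the value was -0.62. Without ApoE-/-NPRC-/- 1 it was -2.76 and met the criterion of the study, as 3136 loci did in that fit, against 1742 with all libraries. By genotype entry the log2 fold change of Pdcd1lg2 was -0.01 (SE 1.01). In every library the FPKM of Cd274 was above that of Pdcd1lg2, with at least 2.23 FPKM against at most 0.51 FPKM.

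Cd28, the costimulatory receptor that CD80 and CD86 engage, separated the titled groups most clearly. It was at 0.76, 0.87, 1.06, 0.68 and 0.98 FPKM in ApoE-/- 1 to 5 and at 0.39, 0.29 and 0.43 FPKM in ApoE-/-NPRC-/- 1 to 3. All 3 libraries titled ApoE-/-NPRC-/- lay below all 5 titled ApoE-/-, in FPKM and on the log2 CPM scale, as 4.1% of all loci did on the latter. The log2 fold change by title was -1.20 (SE 0.23, 95% interval -1.72 to -0.67), with an unadjusted p of 0.000566 and an adjusted p of 0.186 in the edgeR quasi-likelihood test, which does not pass 0.05. DESeq2 gave the same size (-1.19) with an adjusted p of 0.000335, and of the 10 genes it gave an adjusted p under 0.05 for Cd28 alone. Over all loci DESeq2 gave an adjusted p under 0.05 to 999, where edgeR gave it to 0. By genotype entry the log2 fold change of Cd28 was 0.04 (SE 0.44), because the libraries whose labels conflict hold low values on one side and high values on the other.

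The inhibitory counterpart Ctla4 was at 0.2, 0.83, 0.62, 0.26 and 0.24 FPKM in ApoE-/- 1 to 5 and at 0.01, 0.14 and 0.21 FPKM in ApoE-/-NPRC-/- 1 to 3. ApoE-/- 2 and 3 stood above the rest, and ApoE-/-NPRC-/- 1, with 3 counts, far below it. By title its log2 fold change was -1.78 (SE 0.83, adjusted p 0.414, edgeR), and by genotype entry -0.58 (SE 0.95). Ctla4 minus Cd28 on the log2 CPM scale ran from -3.37 to -1.44 in the libraries titled ApoE-/- and from -5.59 to -2.35 in the others, and the groups overlapped.

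Icos, a second costimulatory receptor, was at 0.13, 0.86, 0.35, 0.3 and 0.14 FPKM in ApoE-/- 1 to 5 and at 0.16, 0.12 and 0.14 FPKM in ApoE-/-NPRC-/- 1 to 3. ApoE-/- 2, 3 and 4 were above all others, and ApoE-/- 1 and 5 lay within the range of the ApoE-/-NPRC-/- libraries. By title Icos had a log2 fold change of -1.33 (SE 0.63, adjusted p 0.42, edgeR), and -0.75 without ApoE-/- 2. By genotype entry it was -0.70 (SE 0.72).

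Pdcd1, the gene of PD-1, was at 0.44, 1.1, 1.53, 1.52 and 0.27 FPKM in ApoE-/- 1 to 5 and at 0.35, 0.33 and 0.15 FPKM in ApoE-/-NPRC-/- 1 to 3. ApoE-/- 2, 3 and 4 were the high libraries, and ApoE-/- 5 lay within the range of those titled ApoE-/-NPRC-/-. Pdcd1 had the largest log2 fold change of the 10 by title, at -1.85 (SE 0.65), with an unadjusted p of 0.0194 and an adjusted p of 0.325 in the edgeR test. By genotype entry it was -0.17 (SE 0.83), since ApoE-/- 4, at 1.52 FPKM, then counts as ApoE-/-NPRC-/-.

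**Figure D2:**
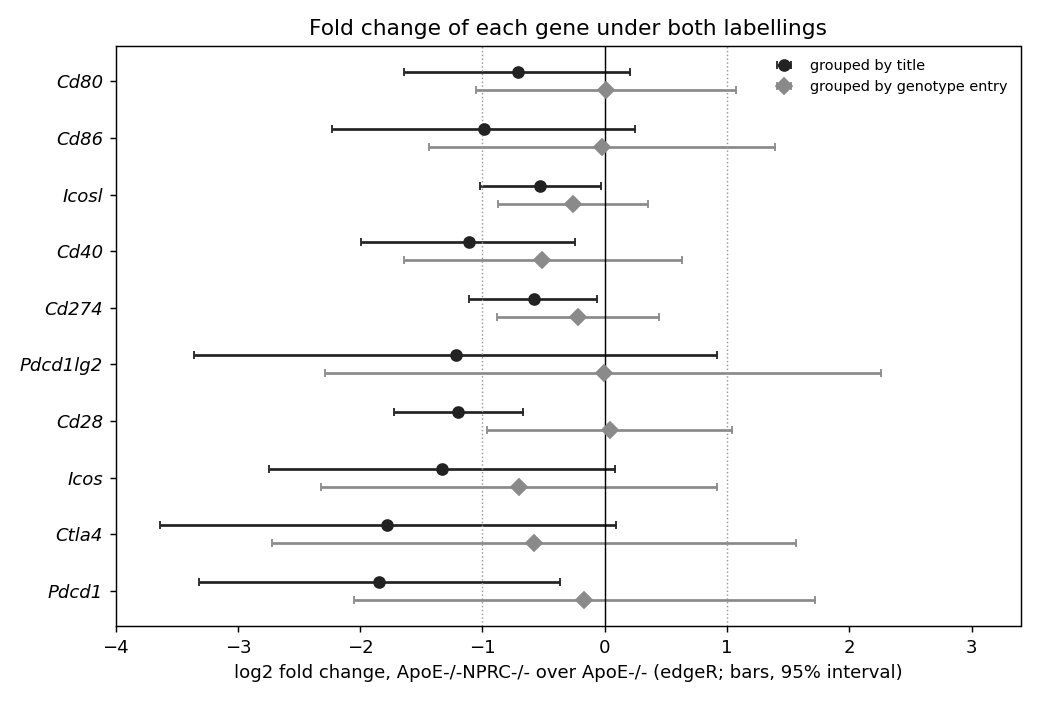
Log2 fold change (edgeR) of each gene for ApoE-/-NPRC-/- over ApoE-/-, by title (circles) and by genotype entry (diamonds), with 95% intervals from the t distribution. Dotted lines mark a 2-fold difference. By title all 10 points lie left of 0 and the interval of Cd28 is -1.72 to -0.67, whereas by genotype entry every interval spans 0.

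Taken over the 10 genes by title, all had a negative log2 fold change, where 50.9% of the 32823 loci tested did. Their median was -1.15 against -0.01 over all loci. An unadjusted p under 0.05 with a lower level was reached by 5 (Cd28, Cd40, Pdcd1, Cd274 and Icosl), against 7.14% of all loci. The criterion of the study was met in the lower direction by 3 (Cd28, Cd40 and Pdcd1), against 3.79% of all loci, and by none in the higher direction. The titled groups did not overlap on the log2 CPM scale for 1 (Cd28), against 4.1% of all loci with the lower level in ApoE-/-NPRC-/-. None of the 10 reached an adjusted p under 0.05 in the edgeR test, as 0% of all loci did, although 4158 loci had an unadjusted p under 0.05. These genes share libraries and cells, so they are not 10 separate observations. When each library was left out in turn, Cd28 met the criterion of the study in 8 of 8 fits, Pdcd1 in 7 and Cd40 in 5. Over all loci, 1058 to 3136 met the criterion in these fits, against 1742 with all libraries. Pdcd1 missed it without ApoE-/-NPRC-/- 3 (-1.56, unadjusted p 0.0714), and Cd40 missed it without ApoE-/- 2, without ApoE-/-NPRC-/- 2 (-0.87, unadjusted p 0.0772) or without ApoE-/-NPRC-/- 3 (-1.05, unadjusted p 0.0588).

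By genotype entry the pattern was not seen. The log2 fold change was negative for 8 of the 10 genes, where 50.7% of all loci had a negative one, and the median was -0.19. The lowest values were those of Icos, Ctla4 and Cd40. No gene had a lower level with an unadjusted p under 0.05, against 0.817% of all loci, and none met the criterion of the study, against 0.481% of all loci in the lower direction. The groups overlapped for all 10, where 0.658% of loci had ApoE-/-NPRC-/- below ApoE-/- with no overlap. Adjusted p was 1 for each in the edgeR test, which called 0% of all loci and gave an unadjusted p under 0.05 to 562. The 95% interval of Cd28 ran from -0.96 to 1.04 and so includes differences of nearly 2-fold in either direction, while those of Cd274 (-0.88 to 0.44) and Icosl (-0.87 to 0.35) were narrower.

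In the 4 libraries whose labels concur, 3 ApoE-/- and 1 ApoE-/-NPRC-/-, there is no replicate of the latter and no test. The values of ApoE-/-NPRC-/- 3 lay below all of ApoE-/- 1 to 3 for 8 genes, for example 0.43 FPKM against 0.76 to 1.06 for Cd28 and 2.23 FPKM against 4.07 to 6.54 for Cd274. For Ctla4 and Icos it lay within their range.

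Across the libraries the genes formed a common pattern with departures. ApoE-/- 2 held the highest FPKM of 5 genes (Icosl, Cd40, Cd274, Icos and Ctla4). ApoE-/- 3 and ApoE-/- 4 were each the highest, or tied for it, for 3. ApoE-/-NPRC-/- 2 was the lowest for 7 genes and among the lowest 2 for 9. On the log2 CPM scale, ApoE-/-NPRC-/- 1 was above the gene mean for Cd80, Cd86, Cd274 and Pdcd1lg2 (0.10 to 0.92) and below it for Cd40 (-0.10), Icosl (-0.35) and the 4 receptors of T cells (-0.45 to -3.38). ApoE-/- 5 was above it for Cd28 (0.54), Pdcd1lg2 (0.18), Cd274 and Ctla4 (0.08 each) and below it for the other 6, down to -1.01 for Pdcd1.

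**Figure D3:**
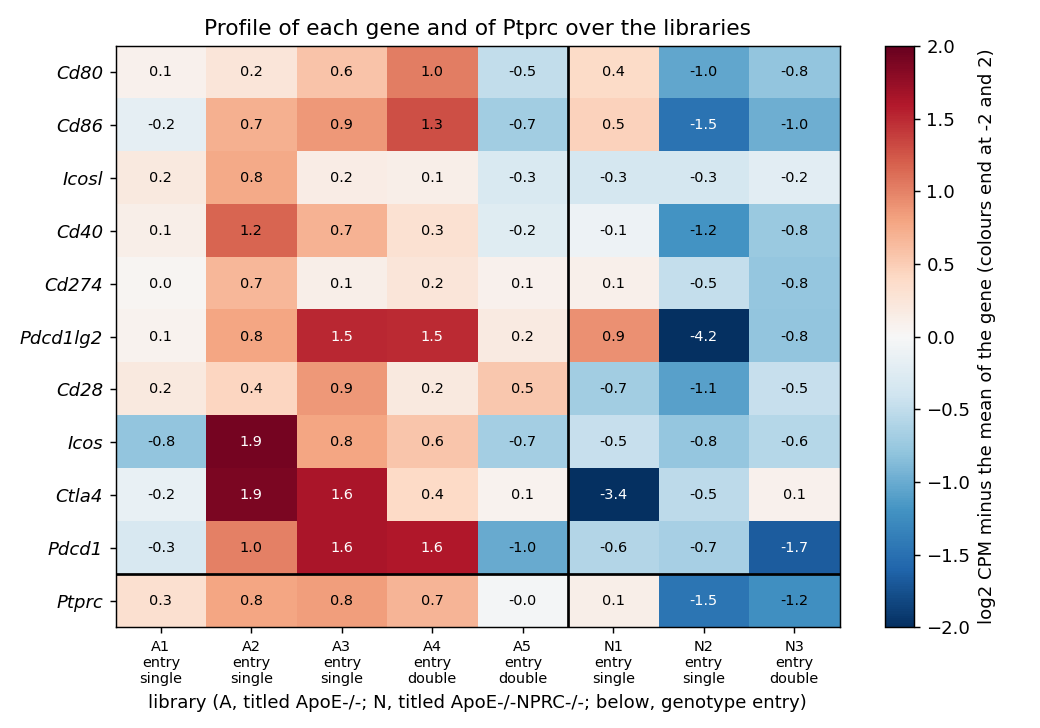
Log2 CPM of each gene in each library minus the mean of that gene over the 8 libraries, with Ptprc (CD45, carried by all leukocytes) below the line. Colours end at -2 and 2 and the numbers are printed in the cells. ApoE-/- 2, 3 and 4 are mostly above the mean and ApoE-/-NPRC-/- 2 and 3 mostly below it, as is Ptprc (0.79, 0.84 and 0.67 against -1.46 and -1.23).

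The pan-leukocyte marker Ptprc varied with these genes. Ptprc was at 6.05, 8.15, 7.62, 6.9 and 4.76 FPKM in ApoE-/- 1 to 5 and at 5.04, 1.67 and 1.85 FPKM in ApoE-/-NPRC-/- 1 to 3. Its log2 fold change was -1.23 by title (SE 0.38, adjusted p 0.286, edgeR), close to the median of the 10 genes, and -0.31 by genotype entry (SE 0.53). In whole aorta, fewer cells of a type and less RNA per cell cannot be told apart. Relative to Ptprc in the same library, the difference between the titled groups on the log2 CPM scale was 0.18 for Cd28, 0.28 for Cd40, 0.30 for Cd86, 0.41 for Icos, 0.60 for Cd80, 0.76 for Cd274 and 0.88 for Icosl, higher in ApoE-/-NPRC-/-. It was -0.18 for Pdcd1, -0.67 for Ctla4 and -0.79 for Pdcd1lg2, the last 2 each resting on 1 library with 3 or 0 counts. The groups overlapped for all 10 on this scale, so none of the 10 was lower without overlap, as 0.317% of all loci were, or higher without overlap, as 24.7% were. By genotype entry the differences relative to Ptprc ran from -0.25 for Pdcd1 to 0.79 for Pdcd1lg2, again with overlap for all 10. Cd274 and Icosl, at the head of the order of levels, had the log2 fold changes nearest to 0 by title.

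**Figure D4:**
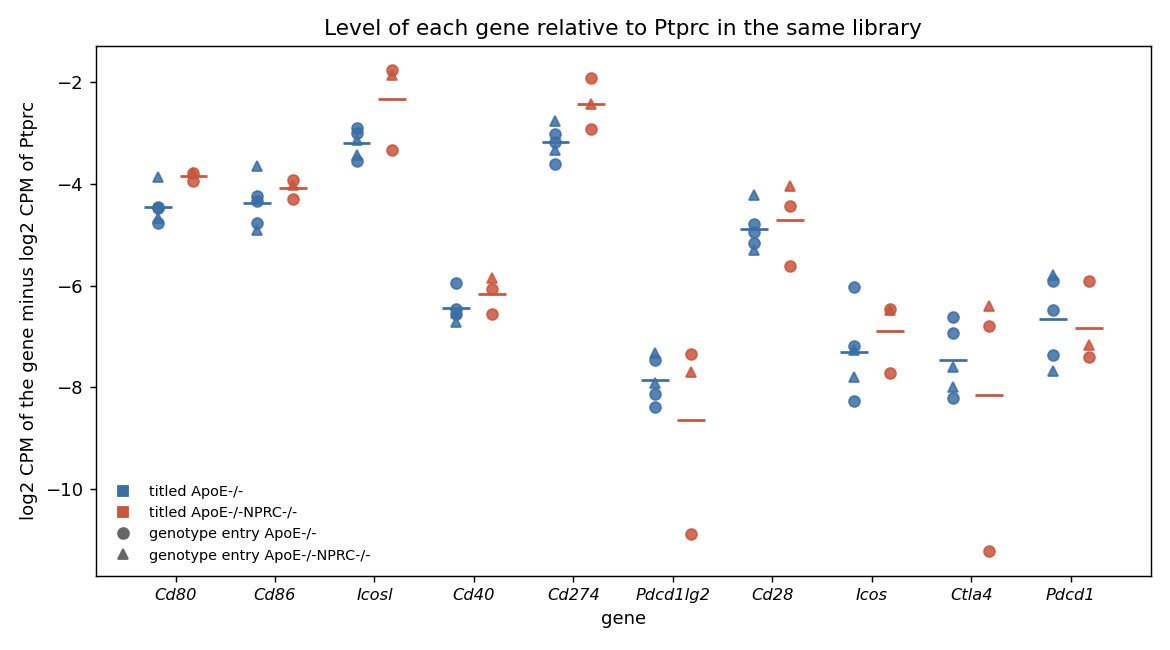
Log2 CPM of each gene minus log2 CPM of Ptprc in the same library, 1 point per library. Colour gives the title, shape the genotype entry, and short lines the group means by title. The titled groups overlap for every gene, and the 2 lowest points are Pdcd1lg2 in ApoE-/-NPRC-/- 2 (-10.87) and Ctla4 in ApoE-/-NPRC-/- 1 (-11.22).

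The marker lists break this down by cell type, in counts by title, and not all of them followed the 10 genes. Over all loci, 50.9% had a negative log2 fold change and 3.79% met the criterion in the lower direction. Summed over 12 T cell markers, FPKM ran from 7.57 to 18.6 in the libraries titled ApoE-/- and from 5.12 to 12.4 in the others, and all 12 had a negative log2 fold change (median -0.79). The T cell sum was 17.1 FPKM in ApoE-/- 5 and 12.4 FPKM in ApoE-/-NPRC-/- 3, against 7.57 FPKM in ApoE-/- 1. The 10 genes summed to 11.2, 7.32 and 12.9 FPKM in the same libraries. The criterion was met by Cd4 (-1.56), the coreceptor of helper T cells, and Cd3e (-1.20), a chain of the CD3 complex, while Cd8a was at -0.05. By genotype entry the T cell median was 0.27, and Cd8a (1.32) and Cd8b1 (1.64), the chains of CD8, met the criterion in the higher direction, against 0.515% of all loci. Of 4 regulatory T cell markers 3 had a negative log2 fold change by title (median -0.16), with -0.15 for Foxp3, their lineage factor, -1.40 for Il2ra, which met the criterion, and 0.67 for Tnfrsf18, the gene of GITR. Their summed FPKM was highest in ApoE-/-NPRC-/- 2 (4.03), the library with the lowest Ptprc (1.67 FPKM). Foxp3 was at only 0.26 FPKM in that library, within a range of 0.24 to 0.46 FPKM over all libraries. The sum there came mostly from the other markers of the list. Of 9 dendritic cell markers 7 met the criterion in the lower direction by title (median -1.26), among them Flt3, the growth factor receptor of dendritic cells, Xcr1, Cd209a and Ccr7. Clec9a (-0.26) and Zbtb46 (0.07) did not meet it. For macrophages the criterion was met by 2 of 10 (Fcgr1 and Lyz2, median -0.81), with sums of 562 to 1700 FPKM against 278 to 917 FPKM. These sums were mostly Lyz2, which alone ran from 219.68 to 1543.97 FPKM over the libraries. Of the 10 macrophage markers, 9 had a negative log2 fold change, with Mertk at -0.01, and Cd163 was at 0.17. For pan-leukocyte markers the criterion was met by 3 of 5 (Ptprc, Laptm5 and Coro1a, median -1.21), and for B cells by 2 of 8 (Fcrla and Blk, median -1.72). Cxcl13 and Fut7, of the lymph node stroma list, met it as well (2 of 5 tested, median -0.62). All 10 smooth muscle markers had a positive log2 fold change, with 9 of them higher at an unadjusted p under 0.05 (5.52% of all loci) and a median of 0.64. Endothelial (median -0.12) and fat cell markers (0.06) had no gene meeting the criterion. The part of these cell types in the values of the 10 genes was not tested.

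Other costimulatory and checkpoint genes showed the same direction by title, with fewer calls among the TNF family. The shares over all loci were 50.9% with a negative log2 fold change and 3.79% lower by the criterion. Of 16 other checkpoint genes and B7 relatives, 14 had a negative log2 fold change (median -0.73) and 4 met the criterion: Lag3 (-1.23), an inhibitory receptor that binds MHC class II, Cd96 (-1.74), a receptor of the nectin family of ligands, Havcr2 (-1.32), the gene of TIM-3, and Btla (-1.54), an inhibitory receptor of lymphocytes. Of the 13 TNF family genes 11 could be tested, 8 had a negative log2 fold change (median -0.74) and only Tnfsf18 (-1.47), the ligand of GITR, met the criterion. Cd40lg and Cd70 did not have the counts to be tested. By genotype entry neither list had a gene with an unadjusted p under 0.05, and the medians were -0.10 and -0.33.

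Downstream of CD28, CD40 and PD-1, 23 of 25 signalling genes tested had a negative log2 fold change by title (median -0.50), against 50.9% of all loci. The criterion was met by 6, all lower, against 3.79% of all loci in that direction. Among them were Zap70 (-1.89), the kinase of the T cell receptor, Il2ra (-1.40), the alpha chain of the interleukin-2 receptor, Vav1 (-1.06), and Ptpn6 (-1.02), the gene of the phosphatase SHP-1. Il2 was listed at 0 in all 8 libraries. In the interferon gamma pathway, which induces PD-L1, all 11 genes tested had a negative log2 fold change (median -0.39), and Ciita (-1.34), the regulator of MHC class II genes, and the chemokine Cxcl9 (-1.86) met the criterion. Ifng itself was at 0 to 0.09 FPKM and was not tested. None of these genes reached an adjusted p under 0.05 in the edgeR test. By genotype entry the medians were -0.19 for signalling and -0.20 for the interferon gamma pathway, with no gene at an unadjusted p under 0.05 in either.

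**Figure D5:**
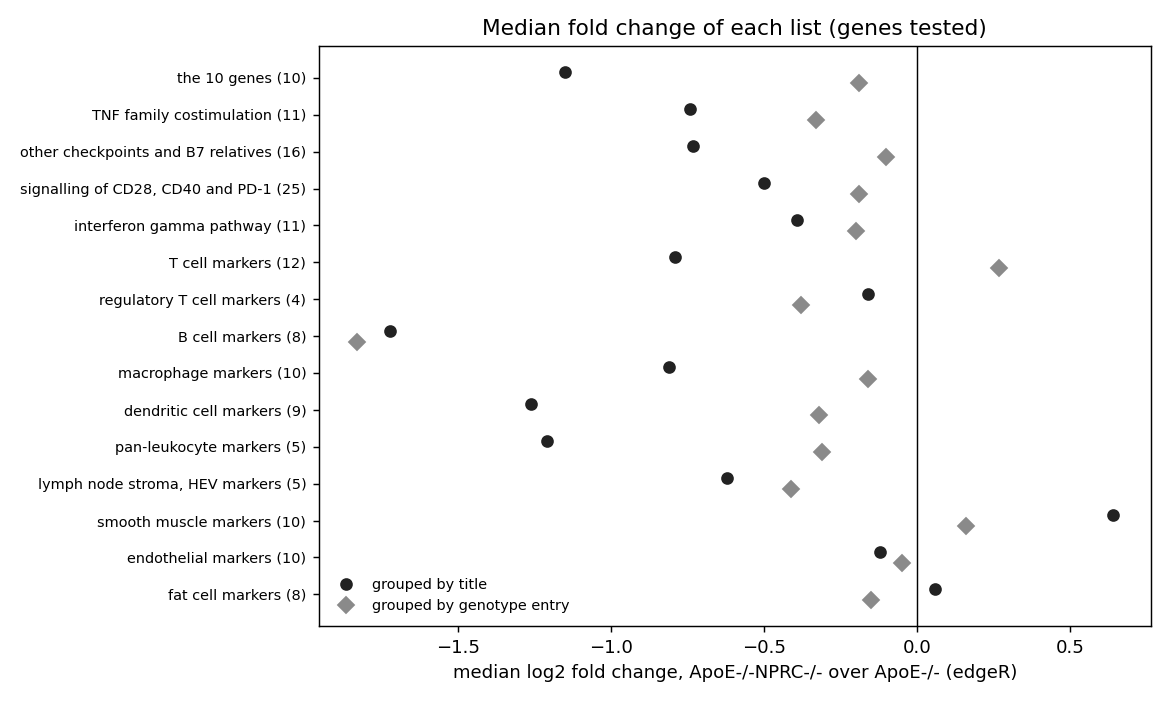
Median log2 fold change (edgeR) of ApoE-/-NPRC-/- over ApoE-/- for the 10 genes and for each related or marker list, by title (circles) and by genotype entry (diamonds), with the number of genes tested in brackets. By title the lists of leukocytes lie left of 0, with B cell (-1.72) and dendritic cell markers (-1.26) beside the 10 genes (-1.15) and smooth muscle markers at 0.64. By genotype entry B cell markers stay at -1.83 and T cell markers are at 0.27.

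The gene with the profile most like each of the 10 over the 8 libraries was found as the locus with the smallest root mean square difference of mean-centred log2 CPM. For Cd80 it was Mctp1 (0.08), for Cd86 Lpxn (0.15), for Icosl Gpr39 (0.12), for Cd40 Nup210 (0.13) and for Cd274 Isoc1 (0.08). For Cd28 it was Gprin1 (0.19), for Icos Egr3 (0.20), for Pdcd1 Fasl (0.19), for Pdcd1lg2 Gm5150 (0.31) and for Ctla4 Grm7 (0.48). Each is the best match of a search over many loci and only 8 libraries, and how close a best match is for other profiles was not tested. The values for Ctla4 and Pdcd1lg2 are set by the single library with 3 or 0 counts.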

How the data were processed

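RNA from 8 whole mouse aortas was sequenced as paired-end, dUTP-stranded poly(A) libraries. The authors trimmed the reads with cutadapt 1.9, mapped them with HISAT2 to GRCm38 and assembled them with StringTie. The submitters' processing notes, which name cutadapt, also name FastQC, a report of read quality. They deposited whole-number counts per assembled locus, not normalized, and FPKM values, which the authors scaled to transcript length and mapped fragments. How the counts were derived and whether strand was used are not given in the sources used here. The table had 0 sample columns without a sample.

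The 10 genes and all lists were chosen with earlier results of these data known. Loci with at least 10 counts in at least 3 libraries (32823) were tested with edgeR 4.0.16 (TMM, quasi-likelihood, Benjamini-Hochberg adjustment; R 4.3.3). Libraries were grouped by title (5 and 3) and again by genotype entry (5 and 3), with no covariate. DESeq2 1.42.0 and limma 3.58.1 on counts or log2(FPKM + 1) were alternatives. No libraries had the same counts within sampling noise. A simulation by title on 31944 loci lowered 100 loci 2-fold and 100 loci 4-fold, taken from loci above a minimum mean count. In the edgeR test, 2% of the 2-fold and 46% of the 4-fold differences passed an adjusted p of 0.05, with 8 of 56 calls false. These shares depend on how many loci differ, which in the real libraries is not known. Named beside the 10 genes are Ptprc, genes of a list that met the criterion of the study (at most 6 a list, smallest p first) and the locus of most similar profile. Other genes of the lists that are named with their values were chosen after those were seen. Some genes that this rule names are not reported here. Promoter windows came from RefSeq.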

Additional observations from a re-analysis of the deposited data

Results flagged for a closer look

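Pdcd1lg2, the gene of PD-L2, stood apart in one library. On the log2 CPM scale it was at -5.29 in ApoE-/-NPRC-/- 2, below the other libraries that carry ApoE-/- as genotype entry (5 in all), where the nearest was at -1.03 and the highest at 0.4. The gap is larger than the critical value of Dixon's test for 5 values allows. The value stems from a count of 0, so its distance depends on the prior count of 2 that was added before taking logs. The groups of 5 libraries were looked at for the 10 genes under both labellings, 20 groups in all, and chance singles out about 1 group in 20.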

How the results depend on the processing

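By title, all 10 log2 fold changes stayed negative in each alternative that kept the titles and could test the gene. Grouped by genotype entry instead, Cd80 was at 0.01 and Cd28 at 0.04, the median was -0.19, 0 genes met the criterion of the study, 0 were lower at an unadjusted p under 0.05, and 327 in place of 1742 loci met the criterion. DESeq2 gave 5 genes by the criterion (Ctla4 and Icos in addition), 1 gene (Cd28) and 999 loci with an adjusted p under 0.05 by title, and 25 loci by genotype entry. A minimum of 1 FPKM in at least 3 libraries left only 5 of the genes to test, of which 5 were negative, 3 had an unadjusted p under 0.05, 1 (Pdcd1) met the criterion, and 712 loci met it. On log2(FPKM + 1), which shrinks the differences of scarce genes, limma gave 0 genes by the criterion, a median of -0.41, 186 loci by the criterion and 14 with an adjusted p under 0.05. With a pseudocount of 0.1 limma called 21 loci by adjusted p, and the criterion was met by Cd28, Ctla4 and Pdcd1 but not by Cd40 (-0.87). Voom with sample weights called 14 loci, and the criterion was met by Cd28, Cd40, Cd86 and Pdcd1lg2 (-3.09) but not by Pdcd1 (-1.64, unadjusted p 0.0542). Without a filter, 785 loci met the criterion by genotype entry. Apart from the label, the number of genes tested and the pseudocount, the cause was not tested.

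Replicate numbers did not pair the samples (correlations of deviations -0.183, -0.098 and 0 for numbers 1 to 3). With the replicate block on the 6 libraries numbered in both groups, the median was -1.24, 4 genes met the criterion (Cd28, Cd40, Ctla4 and Pdcd1) and 0 loci passed by adjusted p. The same 6 libraries without the block gave a median of -1.19 and 1 locus.

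Leaving out each library by title gave 2 to 7 genes at an unadjusted p under 0.05 (2 without ApoE-/-NPRC-/- 2 or 3, 7 without ApoE-/- 5 or ApoE-/-NPRC-/- 1), 2 to 6 by the criterion (2 without ApoE-/- 2, ApoE-/-NPRC-/- 2 or ApoE-/-NPRC-/- 3, 5 without ApoE-/- 1 or ApoE-/- 5, 6 without ApoE-/-NPRC-/- 1), 1058 to 3136 loci by the criterion (without ApoE-/-NPRC-/- 2 and 1), and 0 to 3 loci by adjusted p. By genotype entry it gave 4 to 10 negative genes, 0 to 1 at an unadjusted p under 0.05 and 0 to 1 by the criterion (Pdcd1 without ApoE-/- 4), a median of -0.80 (without ApoE-/- 4) to 0.15 (without ApoE-/-NPRC-/- 3), 268 to 659 loci by the criterion and 0 to 2 by adjusted p. The sign by genotype entry turned for Cd80 (-0.78 to 0.32), Cd86 (-1.12 to 0.34), Cd274 (-0.42 to 0.03), Pdcd1lg2 (-0.87 to 0.39), Cd28 (-0.20 to 0.31), Icos (-1.23 to 0.02) and Pdcd1 (-1.88 to 0.33), and stayed negative for Cd40, Icosl and Ctla4. With 0 to 294 counts a library, the values of Ctla4, Icos, Pdcd1 and Pdcd1lg2 are the least precise. In the simulation, with this number of libraries and few loci changed, 2-fold differences mostly went uncalled by adjusted p.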
